A study of Mus musculus with 4 samples.

Results

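Transcripts encoding 48 nucleolar ribosome biogenesis factors were followed in RNA recovered with CUGBP1 from mouse myoblasts. The members were fixed by name as factors of the small subunit processome, proteins of small nucleolar ribonucleoproteins (snoRNPs) and assembly factors of the large ribosomal subunit, and a probe set was taken only if the platform annotation paired it with 1 of these genes and no other. By that rule 47 of the 48 were measured, out of 19452 genes with a probe set of their own. *Noc2l* was not analysed here on the arrays, though its start is among the sequences searched. *Utp4* appears in the annotation under its older symbol *Cirh1a*.

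The comparison used 4 Affymetrix Mouse Gene 1.0 ST arrays, 2 of RNA that came down with the monoclonal anti-CUGBP1 antibody 3B1 (CUGBP1 IP, here the IP arrays) and 2 of RNA that came down with normal IgG (control IgG, here the IgG arrays). All 4 samples came from C2C12 (LKO-1) cells, a stable derivative of the C2C12 mouse myoblast line that carries an empty lentiviral vector, grown in puromycin and kept proliferating below 70% confluency. Lysates were cytoplasmic, so RNA in the nucleus was largely left out. CUGBP1, encoded by *Celf1*, binds GU-rich stretches of mRNA and promotes deadenylation and decay of its targets, and the comparison asks which transcripts were associated with it.

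Ribosome assembly starts in the nucleolus, where RNA polymerase I makes the large precursor of the ribosomal RNAs. The small subunit processome, a large particle built around the U3 snoRNP, folds and cleaves the part that becomes the small subunit. Box C/D and box H/ACA snoRNPs guide ribose methylation and pseudouridylation, and a separate group of factors assembles the large subunit. Growing cells, including proliferating myoblasts, need this machinery in quantity, and many of its genes are known targets of the transcription factor MYC.

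Each intensity was divided by the 5th percentile of its own array, so a probe set with no transcript reads about 1. Probe sets of 1203 olfactory and vomeronasal receptors, which myoblasts should not express, set the upper end of background at their 95th percentile, which was 1.23 and 1.29 on the IP arrays and 1.09 and 1.16 on the IgG arrays. The median tested probe set read 1.31 and 1.50 on the IP arrays, against 1.08 and 1.22 on the IgG arrays. IgG replicate 2 read above IgG replicate 1 for 86.4% of all genes and for 47 of 47 members. IP replicate 2 read above replicate 1 for 79.1% of all genes and for 43 of 47 members. The myoblast markers were present, with 9 of 9 above background on both IP arrays and 6 of 9 on all 4 arrays. *Myod1*, the muscle determination factor, read 18.80 and 23.21 on the IP arrays and 1.77 and 3.30 on the IgG arrays. Of 13 markers of differentiated muscle, 9 were above background on both IP arrays and 3 on all 4 arrays. Of all 19452 genes, 10768 were above background on both IP arrays and 36.3% on all 4 arrays. *Acta1* read 2.99 and 2.81 on the IP arrays and 1.31 and 1.95 on the IgG arrays, while *Myh1* was within background on each.

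The sequence around the transcription start was examined first, because it is the stretch of these genes that could be read from the reference tables. RefSeq starts of build GRCm38.p6 matched 39 of the 48 members, with 250 bases before and 50 bases after the start. GU-rich letters of the kind CUGBP1 recognises were found in the first 50 transcribed bases of few members, near the share of all protein-coding genes. The letters UGUGU on the transcript strand were found in 2 of the 39 members, *Gnl3* and *Mphosph10*, against 5.63% of 17491 protein-coding genes and 5.52% of all starts of that length. The letters UUGUU were found in *Nop10* and *Pwp2*, against 3.82% of protein-coding genes and 3.89% of all starts. These 4 windows are shown with the GU-rich letters in capitals, beside the first 30 bases of *Utp4*, the member with the highest ratio, which hold neither. Coordinates are chr14:31019082-31019104 (minus strand) for *Gnl3*, chr7:64392189-64392213 (minus) for *Mphosph10*, chr2:112261931-112261955 (plus) for *Nop10*, chr10:78185127-78185149 (minus) for *Pwp2* and chr8:106893640-106893669 (plus) for *Utp4*.
Gnl3: cgacagtgtaTGTGTgtgcgcgc
Mphosph10: ggtgccgtagTGTGTagctatggcg
Nop10: atctggaaggTTGTTggcgcacgcg
Pwp2: gccggagaTTGTTtgtattccgg
Utp4: gagtgcgcaagcgcgcacgtggggccgggg
A match here is a description of letters and not a binding site. The 3′ ends of these transcripts were not analysed here.

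A pair of promoter words was searched for on both sides of the start, and the share of members holding each was above that of all starts. The palindrome CACGTG, the E-box that MYC and related factors recognise, was found within the 300 bases of 10 of 39 members, against 8.91% of protein-coding genes and 7.15% of all starts, counting both strands. The letters CCGGAAG, on either strand, an ETS-type word, were found in 18 of 39, against 12.9% of protein-coding genes and 8.86% of all starts. *Utp4*, *Ltv1*, *Nop2*, *Tsr1* and *Utp18* held both words. In the UtpA complex 3 of the 6 genes held CACGTG, and their windows are shown because these 3 transcripts differ widely in the immunoprecipitate. The windows lie at chr8:106893645-106893670 (plus) for *Utp4*, chr11:107189409-107189434 (minus) for *Nol11* and chr17:71616222-71616247 (plus) for *Wdr43*, with the word in capitals.
Utp4: cgcaagcgcgCACGTGgggccggggc
Nol11: tgagcgttcgCACGTGgtctagactc
Wdr43: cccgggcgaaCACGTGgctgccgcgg
In *Utp4* and *Wdr43* the word began at bases 16 and 18 of the transcript, and in *Nol11* it began 43 bases before the start.

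As a group the ribosome biogenesis transcripts were called about as often as all genes, and 1 of them stood far above the others. The fit (limma, two-sided, Benjamini-Hochberg adjustment over 21044 probe sets, threshold 0.05) called 1 of 47 members higher on the IP arrays, *Utp4*, where it called 1.94% of all genes higher. It called 0 of 47 lower, against 0.134% of all genes, with 15 of 47 members at an unadjusted p under 0.05 (all with a positive difference) against 29.4% of all genes. The signal-to-negative ratio, mean IP intensity over mean IgG intensity, placed *Utp4* and *Npm1* in the top 5% (ratio 2.57 or more), against 4.97% of all genes. The groups did not overlap, with the IP arrays higher, for 33 of 47 members, against 67.1% of all genes, and with the IP arrays lower for 0 of 47, against 0.936%. An exact permutation test of 2 arrays against 2 cannot give a two-sided p below 0.333, so non-overlap of a single transcript is a description. Input RNA was not analysed here, so a transcript's abundance and its association with CUGBP1 cannot be told apart in the level of either group.

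The median log2 difference (IP arrays minus IgG arrays) was 0.54 over the members and 0.29 over all genes. Of the members, 30 of 47 (63.8%) were above background on all 4 arrays, against 36.3% of all genes. Each of the others had at least 1 IgG array within background, which limits what its ratio can show. Among genes above background on all 4 arrays, the median was 0.67 over these 30 members and 0.72 over all such genes, and with quantile normalization it was -0.04 over the 47 members and -0.02 over all genes. The higher median over all genes therefore did not hold in either comparison. Of the 47 ratios, 4 were at least 2, 17 lay between 1.5 and 2, and 26 lay below 1.5.

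**Figure D1:**
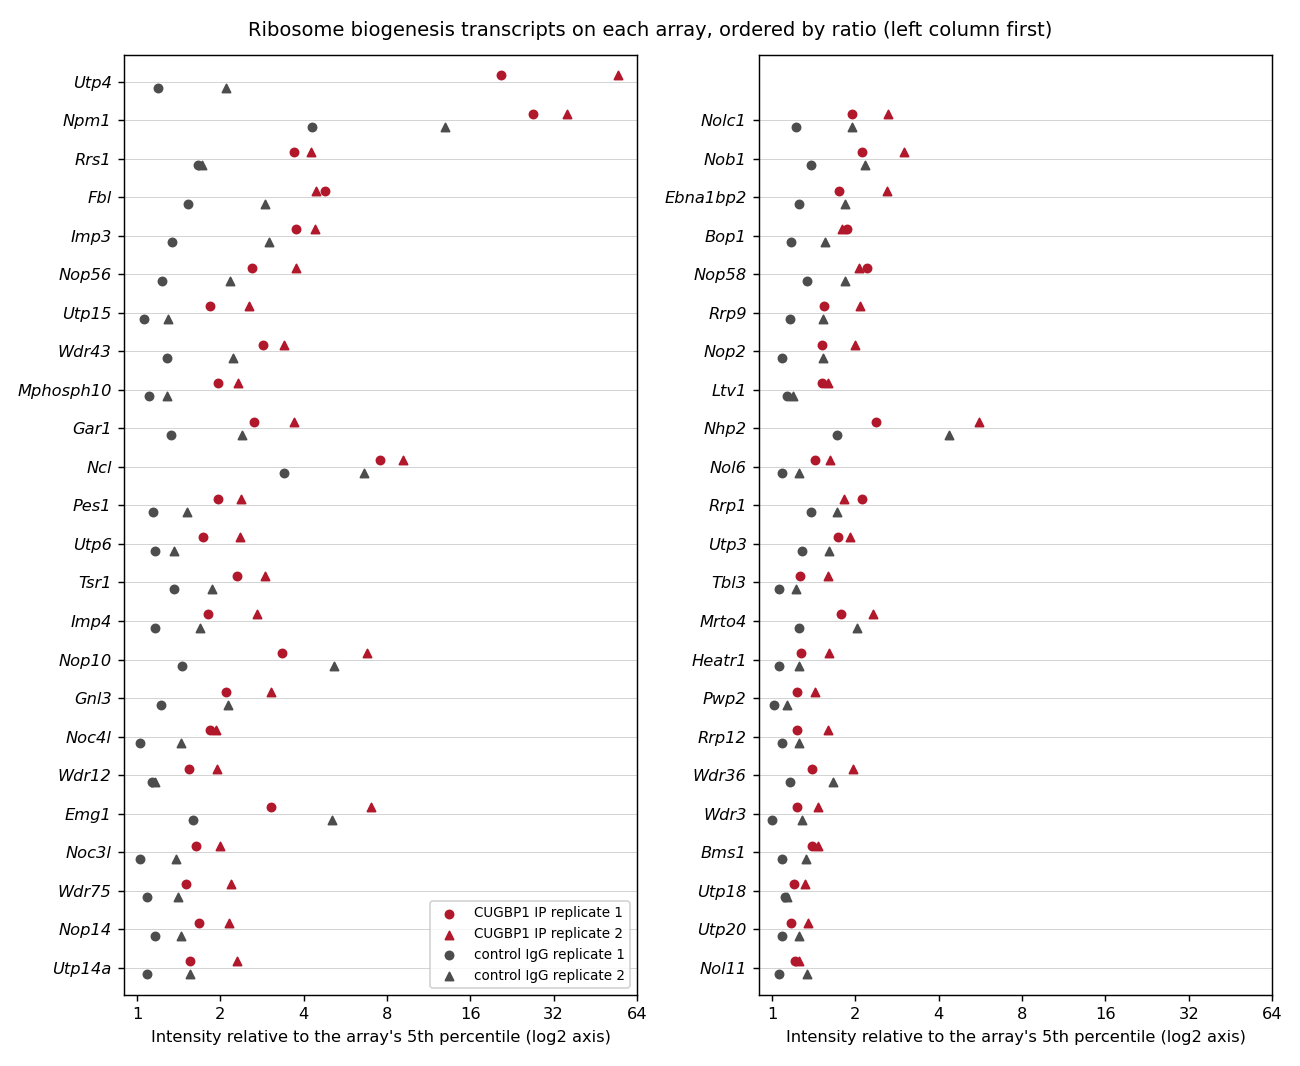
Intensity relative to the 5th percentile of the array (log2 axis) for the 47 measured members, ordered by signal-to-negative ratio down the left and then the right column, with red symbols for CUGBP1 IP, grey for control IgG, circles for replicate 1 and triangles for replicate 2. *Utp4* read 20.73 and 54.62 on the IP arrays against 1.19 and 2.09 on the IgG arrays, while most members lie under 4 on every array.

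The UtpA complex binds the earliest part of the ribosomal RNA precursor and is tied to its transcription. Its subunit *Utp4*, a WD-repeat protein whose human counterpart is altered in a childhood cirrhosis, gave the highest ratio of all 19452 genes. *Utp4* (probe set 10575102) read 20.73 and 54.62 on the IP arrays and 1.19 and 2.09 on the IgG arrays. Both IP arrays were far above both IgG arrays, although the IP arrays themselves differed widely. The means were 37.7 ± 24.0 on the IP arrays and 1.64 ± 0.636 on the IgG arrays (SD, n = 2 arrays each), a ratio of 23.0. The log2 difference was 4.42 (SE 1.17, 95% confidence interval 2.13 to 6.70, limma adjusted p = 0.0241). The ratio was 31.7 against IgG replicate 1 alone and 18.0 against IgG replicate 2 alone. Without IP replicate 1, IP replicate 2, IgG replicate 1 or IgG replicate 2 the log2 difference was 5.11, 3.72, 4.01 and 4.82 in that order, and limma adjusted p ran from 0.172 to 0.663, in fits with 1 residual degree of freedom that called no probe set at all. Without the intensity trend limma adjusted p was 0.143.

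The other 5 UtpA transcripts had ratios of at most 1.86, where the median ratio of all genes was 1.22. *Utp15* read 1.84 and 2.54 on the IP arrays against 1.06 and 1.30 on the IgG arrays, a ratio of 1.86 (log2 0.88, SE 0.29, limma adjusted p = 0.0631). Its groups did not overlap, and its value on IgG replicate 1 was within background. It passed the threshold with arrays scaled to their medians (limma adjusted p = 0.00443) and with an offset of 1 before log2 (0.0476). It missed the threshold with quantile normalization (0.158) and without the intensity trend (0.189). *Wdr43*, a subunit with WD repeats, read 2.86 and 3.41 on IP arrays against 1.28 and 2.22 on IgG arrays, a ratio of 1.79 (limma adjusted p = 0.177). *Wdr75* and the large HEAT-repeat subunit gene *Heatr1* had ratios of 1.47 and 1.24. *Nol11* read 1.21 and 1.25 on the IP arrays, within background on both arrays, and 1.06 and 1.34 on the IgG arrays, so no fold is given for it. *Nol11* was the only member of the 47 whose reading on IgG replicate 2 was above both IP arrays. The difference between *Utp4* and the other subunits was not tested.

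The UtpB complex, which joins the processome together with the U3 snoRNP, held no transcript in the top 5%. *Utp6* had its highest ratio, with 1.73 and 2.35 on the IP arrays against 1.16 and 1.36 on the IgG arrays (ratio 1.62, limma adjusted p = 0.125). *Tbl3* had a ratio of 1.25. *Wdr36* read 1.39 and 1.96 on IP arrays against 1.16 and 1.66 on IgG arrays (ratio 1.19, limma adjusted p = 0.429), and its groups overlapped. *Wdr3* read 1.23 and 1.47 on IP arrays against 1.00 and 1.28 on IgG arrays (ratio 1.18), and *Utp18* 1.20 and 1.31 on IP arrays against 1.11 and 1.13 on IgG arrays (1.12), so these 2 were within background on IP replicate 1, as was *Pwp2*. *Pwp2*, which holds UUGUU near its start, read 1.23 and 1.43 on the IP arrays and was within background on both IgG arrays (1.02 and 1.13). No fold is given for it, since 3 of its 4 values were within background. The median log2 difference of the 6 was 0.28, near that of all genes.

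The Mpp10 complex holds the pairing between U3 and the ribosomal RNA precursor. All 3 of its transcripts and that of the U3 snoRNP protein *Rrp9* had both IP arrays above both IgG arrays, as did 67.1% of all genes. limma passed 0 of the 4, while 2 had an unadjusted p under 0.05, against 29.4% of all genes. *Imp3* read 3.77 and 4.41 on the IP arrays against 1.34 and 3.00 on the IgG arrays. Its ratio of 1.88 was 3.05 against IgG replicate 1 alone and 1.36 against IgG replicate 2 alone, with limma adjusted p = 0.205. *Mphosph10*, the scaffold of the complex, carries UGUGU near its start, as *Gnl3* does in the windows above. It read 1.96 and 2.31 on IP arrays against 1.11 and 1.28 on IgG arrays (ratio 1.79, log2 0.84, SE 0.29, limma adjusted p = 0.0767). It passed with arrays scaled to their medians (0.0102), and missed the threshold with quantile normalization (0.272) and without the intensity trend (0.148). *Imp4* and *Rrp9* had ratios of 1.58 and 1.34.

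The remaining processome factors had ratios from 1.08 to 1.53, and limma passed 0 of 8. Of the 8, 2 had an unadjusted p under 0.05, against 29.4% of all genes. *Noc4l*, which works with the scaffold protein Nop14, had 1.53 and *Nop14* itself 1.47. *Emg1*, a pseudouridine methyltransferase of the small subunit RNA, read 3.06 and 6.99 on the IP arrays and 1.59 and 5.08 on the IgG arrays. Each replicate 2 array read higher than its replicate 1 array and the groups overlapped (limma adjusted p = 0.434). The *Emg1* ratio of 1.51 was 3.16 for the mean of both IP arrays against IgG replicate 1 and 0.989 for that mean against IgG replicate 2. IP replicate 2 itself (6.99) read above IgG replicate 2 (5.08). *Utp14a*, which activates a processome helicase in yeast, had a ratio of 1.46, *Nol6* 1.30 and *Utp3* 1.26. The GTPase transcript *Bms1* read 1.39 and 1.47 on IP arrays against 1.09 and 1.33 on IgG arrays (ratio 1.18), and *Utp20*, a very large scaffold, 1.17 and 1.35 on IP arrays against 1.09 and 1.25 on IgG arrays (1.08). *Utp20* was within background on replicate 1 of both groups. Factors of the exported small subunit precursor were alike in range, with 1.62 for the GTPase-like *Tsr1*, 1.44 for the endonuclease *Nob1* that makes the mature end of the small subunit RNA, 1.34 for *Ltv1* and 1.21 for *Rrp12*, both of which take part in export of the precursor. In this group limma passed 0 of 4, and *Ltv1* had an unadjusted p of 0.0472. *Rrp12* was within background on replicate 1 of both groups.

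**Figure D2:**
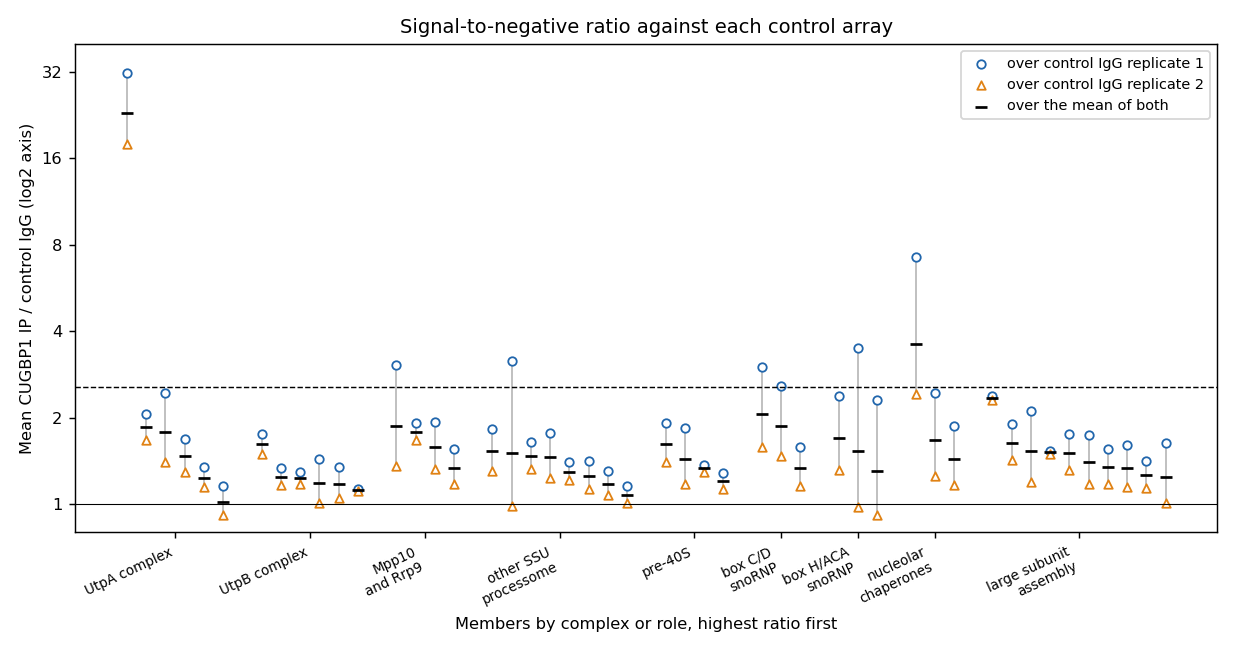
Mean of the IP arrays over control IgG (log2 axis) for each measured member, grouped by complex or role, against IgG replicate 1 alone (circles), IgG replicate 2 alone (triangles) and the mean of both (bars), with a dashed line at 2.57, the 95th percentile over all tested probe sets. *Utp4* lies above the line against either IgG array, at 31.7 and 18.0. *Npm1* lies at 7.28 against IgG replicate 1 and at 2.42 against IgG replicate 2. The line holds for the mean of both IgG arrays. Against IgG replicate 1 alone the 95th percentile was 3.97, and against IgG replicate 2 alone it was 2.12. *Npm1* was in the top 5% against either.

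Among snoRNP proteins, the ratios ran from 1.34 to 2.07 over 3 box C/D transcripts and from 1.31 to 1.70 over 3 box H/ACA transcripts, so the ranges overlapped. *Fbl*, encoding the methyltransferase fibrillarin, read 4.77 and 4.44 on the IP arrays against 1.53 and 2.91 on the IgG arrays. Its groups did not overlap, with a ratio of 2.07 (log2 1.12, SE 0.65, limma adjusted p = 0.203). *Nop56*, a core scaffold protein, read 2.60 and 3.74 on IP arrays against 1.23 and 2.16 on IgG arrays (ratio 1.87, limma adjusted p = 0.162), and its partner *Nop58* had a ratio of 1.34. For box H/ACA, *Gar1* read 2.64 and 3.68 on the IP arrays against 1.33 and 2.39 on the IgG arrays (ratio 1.70, limma adjusted p = 0.214). *Nop10* read 3.33 and 6.78 on IP arrays against 1.45 and 5.14 on IgG arrays, and *Nhp2* 2.37 and 5.59 on IP arrays against 1.72 and 4.34 on IgG arrays. In both, IgG replicate 2 read above IP replicate 1, and limma adjusted p was 0.378 for *Nop10* and 0.594 for *Nhp2*. With the mean of both IP arrays against IgG replicate 1 alone *Nop10* had 3.49 and *Nhp2* 2.31, and against IgG replicate 2 alone 0.983 and 0.917. In both, IP replicate 2 itself read above IgG replicate 2. Of the 14 members whose groups overlapped, 13 had the reading of IgG replicate 2 between those of the IP arrays. The exception was *Nol11*, within background on both IP arrays. Since IgG replicate 2 was the higher IgG array for every member, any overlap had to involve it.

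The abundant nucleolar proteins nucleophosmin and nucleolin escort ribosomal RNA and assembling particles, and their transcripts differed in ratio. *Npm1* read 26.91 and 35.66 on the IP arrays and 4.30 and 12.95 on the IgG arrays, without overlap. The means were 31.3 ± 6.19 on the IP arrays and 8.62 ± 6.12 on the IgG arrays (SD, n = 2 arrays each), and the ratio of 3.63 ranked 454 of 19452 genes. The log2 difference of 2.05 (SE 1.36, 95% confidence interval -0.60 to 4.71) missed the threshold (limma adjusted p = 0.244). *Npm1* left the top 5% when only probe sets above background on all 4 arrays were ranked, since the 95th percentile of the ratio was then 4.01. Its probe set names no other gene, but 3 further probe sets name *Npm1* together with *Gm15484*, so related sequences cannot be told apart from it with certainty. *Ncl* read 7.57 and 9.15 on IP arrays against 3.41 and 6.63 on IgG arrays, a ratio of 1.67 (log2 0.81, 95% confidence interval -1.33 to 2.95, limma adjusted p = 0.530). *Nolc1*, the snoRNP chaperone Nopp140, had a ratio of 1.44.

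Large subunit assembly factors had ratios from 1.25 to 2.35 over 10 measured genes, and limma passed 0 of 10. Of the 10, 4 had an unadjusted p under 0.05, against 29.4% of all genes. *Rrs1*, which helps to load the 5S ribonucleoprotein, read 3.69 and 4.26 on the IP arrays and 1.66 and 1.72 on the IgG arrays, with close replicates on both sides. Its ratio of 2.35 was 2.39 and 2.31 against the IgG arrays taken singly, and its log2 difference of 1.23 (SE 0.54, 95% confidence interval 0.18 to 2.28) missed the threshold (limma adjusted p = 0.138). *Rrs1* entered the top 5% when IgG replicate 1 was left out, and for no other array left out. Of the PeBoW complex, *Pes1* read 1.96 and 2.38 on IP arrays against 1.14 and 1.52 on IgG arrays (ratio 1.63, limma adjusted p = 0.137), *Wdr12* had 1.52 at its brighter probe set and 1.16 at the other, and *Bop1* had 1.35. *Gnl3*, nucleostemin, had a ratio of 1.53, *Noc3l* 1.51, *Ebna1bp2* 1.40, the methyltransferase transcript *Nop2* 1.34, *Rrp1* 1.27 and *Mrto4* 1.25, with 1.21 at its other probe set.

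Several members also carry snoRNA genes inside their own gene. By RefSeq positions, 6 of the 48 (12.5%) enclosed at least 1 snoRNA gene, against 1.7% of 21896 protein-coding genes. These were *Nop56* with 5, *Nop58* with 4, *Gnl3* and *Wdr43* with 3 each, *Ncl* with 2 and *Tsr1* with 1. Their signal-to-negative ratios ran from 1.34 for *Nop58* to 1.87 for *Nop56*, and 0 of the 6 were called (limma), with *Nop56* at an unadjusted p under 0.05 (0.0406).

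**Figure D3:**
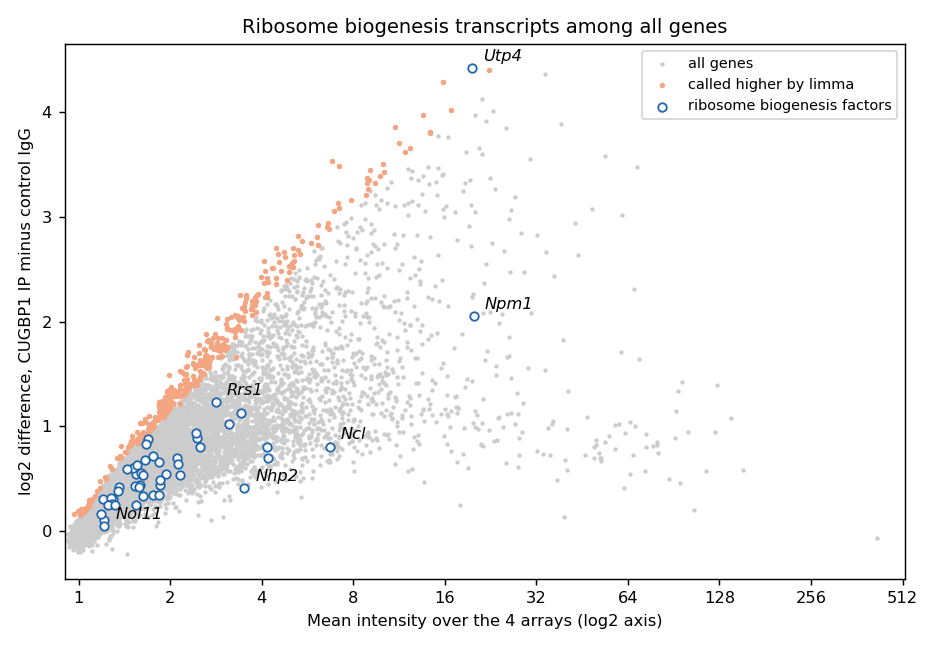
Log2 difference (IP arrays minus IgG arrays) against the mean intensity over the 4 arrays (log2 axis), with 1 point per gene, genes called higher by limma in orange and the 47 members as open blue circles. *Utp4* lies at the top with 4.42, *Npm1* at 2.05 lies inside the range of uncalled genes, and *Nol11*, within background on both IP arrays, is at the lower left.

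The rest of the pathway was read from lists of genes outside the members. Of 62 further assembly factors, 4 rose, against the 1.94% of all genes called higher, and 0 fell. *Utp25*, another small subunit processome factor, read 3.06 and 5.21 on the IP arrays against 1.06 and 1.22 on the IgG arrays (ratio 3.63, log2 1.81, SE 0.43, limma adjusted p = 0.0140). *Nifk*, which encodes a nucleolar partner of Ki-67 (ratio 2.82, limma adjusted p = 0.0473), *Naf1*, an assembly factor of box H/ACA snoRNPs (2.45, 0.0453), and *Nol10* (1.88, 0.0378) were the others. Leaving out any 1 array ended these calls, as it did every call of limma. *Snu13*, which encodes the remaining core protein of box C/D snoRNPs, read 82.97 and 111.00 on IP arrays against 3.72 and 17.44 on IgG arrays, a ratio of 9.17 (limma adjusted p = 0.0831), beside 2.07, 1.87 and 1.34 for *Fbl*, *Nop56* and *Nop58*. The median log2 difference of these 62 genes was 0.54, the same as that of the members.

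RNA polymerase I and its factors, 16 measured genes, had a median log2 difference of 0.44, with 0 called (limma). Of the 16, 4 had an unadjusted p under 0.05, against 29.4% of all genes. The highest ratio was that of *Polr1d* (2.79, limma adjusted p = 0.155). The ribosomal proteins are what these factors assemble, and on the IP arrays their transcripts read close to IgG replicate 2. Of 55 measured ribosomal protein transcripts, 5 (9.09%) had both IP arrays above both IgG arrays, beside 33 of 47 members (70.2%) and 67.1% of all genes. Over both IgG arrays their median ratio was 1.49 and their median log2 difference 0.76, beside 1.46 and 0.54 for the members. With the mean of both IP arrays over each IgG array singly, their median ratio was 3.27 for IgG replicate 1 and 0.965 for IgG replicate 2. That of the members was 1.76 and 1.20. limma passed 0 of the 55, while 3 had an unadjusted p under 0.05, against 29.4% of all genes. The difference between the lists was not tested. *Emg1*, *Nop10* and *Nhp2* were the members with ratios of the mean IP intensity under 1 against IgG replicate 2 that were above background on all 4 arrays. In each of them IP replicate 2 itself read above IgG replicate 2.

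**Figure D4:**
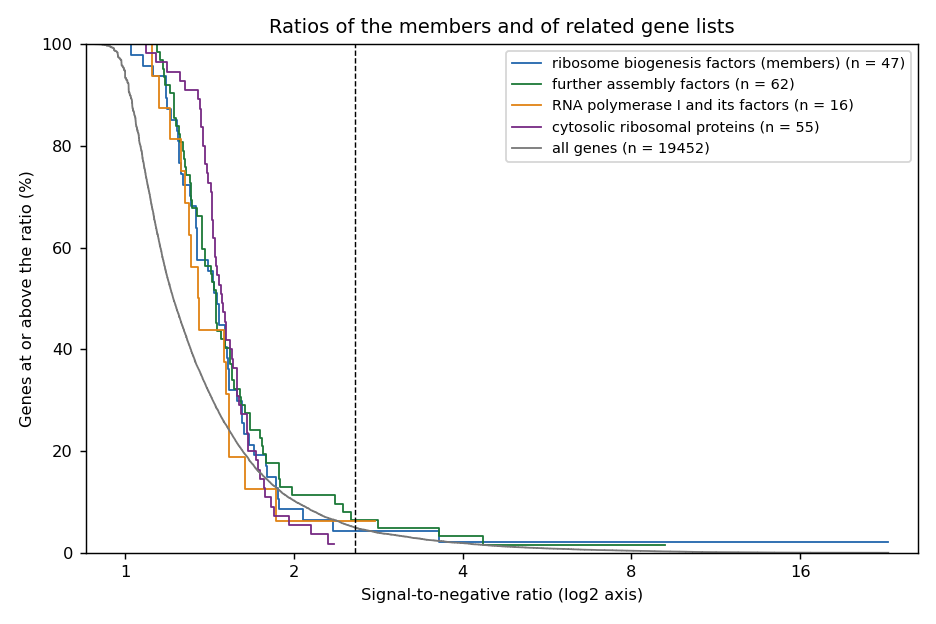
Percentage of genes at or above each signal-to-negative ratio (log2 axis) for the 47 members, 62 further assembly factors, 16 genes of RNA polymerase I, 55 cytosolic ribosomal proteins and all 19452 genes, with a dashed line at 2.57. Past the line lie 2 of the 47 members (4.26%), 4 of the 62 further factors (6.45%), 1 of the 16 polymerase I genes and 0 of the 55 ribosomal protein transcripts, beside 4.97% of all genes.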

How the data were processed

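The authors deposited 1 intensity per probe set and array, divided by that array's 5th percentile over all probe sets. How probes were summarised and any background step were not given in the sources used here. Methods of the study name a detection filter for the arrays of a decay time course, and whether it shaped this table is not stated. Each sample was 1 array, with 100 ng of RNA. Of 25175 probe sets, 21044 name 1 gene, 1492 several and 2639 none, and only the first were tested. Symbols were updated by gene identifier through a RefSeq table (GRCm38.p6), used for names, neighbours and start sequences. The probe set with the highest mean stood for a gene.

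Log2 values of the 2 groups were compared with limma 3.58.1 (R 4.3.3), with an intensity trend and no further scaling. The fit was tried on simulated data with independent noise on each array, which cannot speak for arrays that deviate together. Precision is limited by the small number of arrays, 2 in each group. Nothing says that replicates came from separate cultures, so p-values measure the spread between these samples, which may be technical.

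Members and lists were chosen with earlier results of these data known. Per-array values are given for called members, the 12 highest and 6 lowest ratios, and the 6 with the highest mean. Alternatives were other scalings, an offset of 1, no trend, a background filter, arrays left out, a replicate block and every probe set of a gene.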

Additional observations from a re-analysis of the deposited data

Results flagged for a closer look

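Probe sets that name a member together with another gene took no part in the comparison. Of 7 such probe sets, the 3 that name *Gm15484* and *Npm1* read higher on both IP arrays than on both IgG arrays, with ratios of 3.45 (probe set 10362593), 2.87 (probe set 10363178) and 3.04 (probe set 10583340). The probe set of *Npm1* alone had 3.63. Signal from *Npm1* and from *Gm15484* cannot be told apart on these probe sets. The 4 probe sets that name *Nol11* and *Rps12* had 0 of 4 with both IP arrays above both IgG arrays.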

How the results depend on the processing

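*Utp4* was the member called higher with all arrays (1 of 47), with quantile normalization, and among probe sets above background. With arrays scaled to their medians 3 members were called (*Mphosph10* and *Utp15* too), with an offset of 1 before log2 there were 2, and 0 without the intensity trend. Leaving out any array gave 0 members and 0 probe sets called in either direction by limma, with 1062 to 6085 probe sets at an unadjusted p under 0.05. 0 members were called lower in any setting. Over all probe sets, limma called 411 higher and 29 lower, and 1362 higher with arrays scaled to their medians, 763 with an offset of 1, 0 higher and 0 lower without the trend (4757 at an unadjusted p under 0.05), and 270 higher and 0 lower above background. Quantile normalization gave 18 lower. Fitting the replicate number as a block called 35 of 47 members and 11809 of the 21044 tested probe sets higher. The 35 included *Utp4*, *Utp15*, *Mphosph10*, *Rrs1*, *Nop56* and *Fbl*, and left out *Npm1*. Deviations of same-numbered arrays correlated at 0.639 across probe sets. Whether same-numbered samples shared a lysate is not stated, so the main fit had no block.

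The median log2 difference of all genes was 0.29, and -0.02 with quantile normalization. That of the members minus that of all genes, 0.26, was -0.03 with quantile normalization and -0.05 above background, and ran from 0.06 to 0.41 with arrays left out. Members with non-overlapping groups numbered 33 unscaled, against 66.3% of all probe sets. They numbered 20 after median scaling (30.8% of all) and 7 with quantile normalization (19.4% of all). Above background there were 21 of 30 (78.0% of all). With arrays left out there were from 33 to 47, against 68.3% to 89.0% of all probe sets. In the top 5% there were 2 members, 1 above background, and from 2 to 3 with arrays left out. Of the 21 members chosen by call, rank or mean, 7 had a positive difference in all of these settings, but with quantile normalization it was 3.31 for *Utp4*, 0.42 for *Utp15*, 0.41 for *Npm1*, 0.31 for *Mphosph10*, 0.11 for *Pes1*, 0.05 for *Nop56* and 0.03 for *Rrs1*, and *Utp4* was the one called. There the log2 difference turned negative for *Fbl* (-0.07), *Imp3* (-0.04), *Wdr43* (-0.04), *Gar1* (-0.16), *Ncl* (-0.80) and *Nop10* (-0.39). It was also negative there for *Emg1* (-0.54), *Nhp2* (-0.80), *Wdr36* (-0.29), *Bms1* (-0.09), *Utp18* (-0.12) and *Utp20* (-0.17). With arrays scaled to their medians it did for *Wdr36* (-0.04), *Wdr3* (-0.04), *Bms1* (-0.04), *Utp18* (-0.13), *Utp20* (-0.18) and *Nol11* (-0.24). With arrays left out it ran from -0.11 to 1.71 for *Nop10*, -0.14 to 1.54 for *Emg1*, -0.25 to 1.08 for *Nhp2*, -0.01 to 0.51 for *Wdr36* and -0.12 to 0.21 for *Nol11*. With quantile normalization the log2 difference of *Nol11* was -0.17. *Nol11* was within background on both IP arrays, so the sign of the differences listed for it has no meaning. The cause of these changes was not tested.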

Other observations

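Of the genes beside *Utp4* by the RefSeq table, 3 were measured, with ratios from 1.47 to 2.41, and *Derpc* was not analysed here. *Sntb2*, which encodes a syntrophin, read 1.80 and 1.97 on the IP arrays against 1.16 and 1.41 on the IgG arrays (ratio 1.47). *Chtf8* read 3.83 and 6.21 on IP arrays against 1.64 and 3.97 on IgG arrays (1.79), and *Vps4a*, an ATPase of endosomal sorting, 2.93 and 4.03 on IP arrays against 1.09 and 1.80 on IgG arrays (2.41). No gene of that table overlapped *Utp4*.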
